A study of Caenorhabditis elegans with 16 samples.

Results

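The genes described here act in RNA interference (RNAi) and the small RNA pathways of Caenorhabditis elegans. They were taken by name from a list of 44 genes that spans Dicer and its partners, the enhanced-RNAi (eri) genes, Argonautes, RNA-dependent RNA polymerases, mutator and RNAi-defective (rde) genes, double-stranded RNA (dsRNA) transporters and exonucleases. The table of the study held 35 of the 44 genes under these names, as 52 of its 26080 features, each feature being 1 annotated transcript. The other 9 genes stood under an older name or a sequence name, as 13 features, and are given beside the 52 without being counted among them. RNA was measured by poly(A) RNA sequencing of whole worms at the L4 larval stage. The wild-type strain N2 was compared with the strains BB4, adr-1(gv6) adr-2(gv42), and BB21, adr-1(tm668) adr-2(ok735), which carry different mutant alleles of both adenosine deaminases acting on RNA (ADARs) in every cell. Each strain was grown at 20 °C, either under standard conditions throughout or with a heat shock of 75 min at 34 °C followed by 20 min at room temperature and 3 h at 20 °C. The 16 libraries were 3 of N2, 3 of BB4 and 2 of BB21 under each condition, and BB4 and BB21 were pooled as ADAR mutants, with 5 libraries a condition.

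In RNAi, Dicer cuts dsRNA into short interfering RNAs (siRNAs), and a primary Argonaute loaded with such an siRNA finds the target transcript. In the worm, RNA-dependent RNA polymerases then copy the target into secondary siRNAs, which are made at the mutator foci beside the germ cell nuclei and are loaded onto a large group of worm-specific Argonautes. MicroRNAs and piRNAs use Argonautes of their own, and endogenous siRNAs pass through the ERI complex with Dicer. ADARs change adenosine to inosine within dsRNA, so they act on the same kind of RNA that Dicer cuts, and in the worm ADR-2 is the active deaminase while ADR-1 binds RNA and alters its editing.

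Expression is given as the normalized count, the number of reads of a transcript divided by the size factor of its library. The libraries fell into 6 deep ones of 30011732 to 35693369 reads (replicate 3 of N2 and BB4 and replicate 2 of BB21) and 10 shallow ones of 4699505 to 9624995 reads, and this split followed the endings of the library titles, so depth and title ending cannot be told apart. The term for the title ending used below has 3 levels, the 2 endings of the shallow libraries and the 4 endings of the deep ones pooled, and the deep pair of BB4 replicate 3 does not share an ending. The pairs of N2 replicate 2 and BB4 replicate 1, whose libraries share a title ending, stood apart. The count of hsp-70 after heat shock was 0.541 and 0.41 times that of the standard library with the same number in these pairs, against 1.77 to 8.28 times in the other 6, and that of hsp-16.2 was 1.54 and 1.09 times against 2.64 to 16.25 times. Their heat shock libraries had hsp-70 at 628 and 266, against 2603 to 3456 in the other heat shock libraries. The standard library of N2 replicate 2 had hsp-16.2 at 1066, against 332 to 649 in the other standard libraries, and 1639 after heat shock, so its low ratio also rests on the standard library. The counts of genes that fell or rose and the calls of named genes after heat shock are therefore also given without these 2 pairs, a choice made after seeing the data. The mutated genes were lower in the mutants in every library for these features: adr-1 (H15N14.1c) was at 1335 to 2683 in N2 and 418 to 1068 in the mutants, and adr-2 (T20H4.4) at 732 to 1442 and 139.6 to 593. The scarce adr-1 feature H15N14.1g did not part the shallow libraries, at 0 to 2.57 in N2 and 0 to 10.83 in the mutants. In the deep ones it was at 132 and 135 in N2 and 25.1 to 70.2 in the mutants.

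After heat shock most of the RNAi genes had lower counts, and rrf-2 had higher counts. In N2, 39 of the 52 features (75.0%) were lower in all 3 pairs of libraries with the same replicate number and 1 higher, against 25.7% and 24.5% of all features tested. In the ADAR mutants, 19 of 52 (36.5%) were lower in all 5 pairs and 3 higher, against 17.6% and 19.6%. Groups of libraries that did not overlap, with heat shock below standard conditions, were found for 10 features in N2 and 6 in the mutants, beside 7.62% and 4.2% of all features, and for 0 with heat shock above, beside 11% and 6.48%. Over both strain groups, 17 features of 14 genes (32.7%) were lower in all 8 pairs, against 12.4%, and 1 feature, that of the RNA-dependent RNA polymerase gene rrf-2, was higher in all 8, against 11.9%. The 14 genes were drh-1, rde-4, sid-1, eri-1, eri-6, mut-14, mut-2, mut-7, rde-2, alg-2, ergo-1, prg-2, rde-1 and nrde-3. For eri-6 only C41D11.1c was lower in all 8. Of its other features, C41D11.1a, C41D11.1b and C41D11.1d were lower in 7, 6 and 6 pairs, and C41D11.1e and C41D11.1f were higher in 7 and 6. Without the pairs that stood apart, 42 features were lower and 1 higher in both remaining pairs of N2, against 32.6% and 32.6% of all features. In the mutants 21 were lower and 5 higher in all 4, against 22.2% and 27.3%, and over all 6 pairs 19 were lower and 1 higher, against 15% and 17.3%. Over the 52 features the median log2 fold change was -0.44 in N2, beside 0.04 over all features, and -0.18 in the ADAR mutants, beside 0.07. Whole worms were sequenced, and fewer cells of a type and less RNA per cell cannot be told apart.

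**Figure D1:**
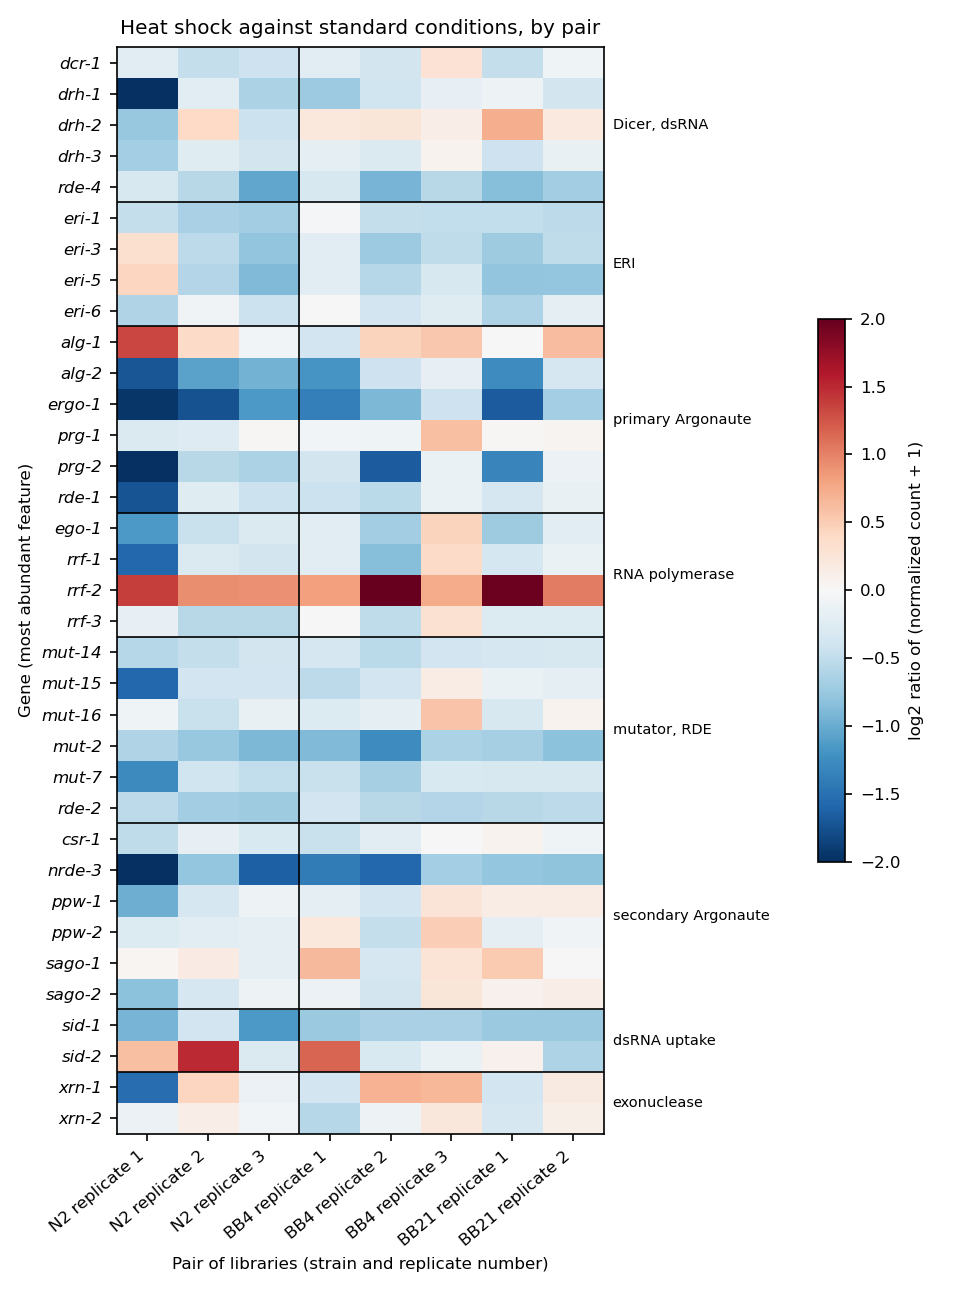
The colour of each cell is the log2 ratio of heat shock to standard conditions in 1 pair of libraries (columns, strain and replicate number) for the most abundant feature of each of the 35 genes (rows, grouped by role), with colours saturating at a size of 2. The rows of mut-2, rde-2, rde-4, sid-1, ergo-1 and nrde-3 are blue in all 8 pairs and the row of rrf-2 is red in all 8.

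The comparison of group means over all 24401 features (limma, Benjamini-Hochberg adjustment, called at an adjusted p under 0.05) called few of these genes. In N2, 0 of the 52 features were called, where 0.537% of all features were called lower and 2.36% higher. At an unadjusted p under 0.05, 9 features were lower and 0 higher, beside 7.6% and 12.2% of all features, and the lowest adjusted p was 0.0737, that of rde-2. DESeq2 called 6 features lower in N2 and 0 higher, where it called 2.52% of all features lower and 5.99% higher, and edgeR called 0 (all features 0.156% and 1.47%). In the ADAR mutants 4 features were lower, both of mut-2 and both of rde-2, where 2.39% of all features were called lower and 5.01% higher. At an unadjusted p under 0.05, 6 were lower and 0 higher, beside 7.59% and 12.9%. DESeq2 called 5 lower, beside 4.28% of all features lower and 8.44% higher, and edgeR 3, beside 1.95% and 5.35%. The added limit of the study, a log2 fold change over 2 in size in either direction, was passed by 0 members in N2 and in the mutants, and by 1.95% and 3.68% of all features.

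Libraries with the same replicate number deviated together, most in the deep pairs. In the shallow pairs N2 replicate 2, BB4 replicate 2 and BB21 replicate 1, the standard library matched a library of another pair better. With the number as a block more of the changes passed the test. In N2, 16 features of 13 genes fell, by 0.47 to 1.91 on the log2 scale, and 0 rose, where 9.91% of all features fell and 9.57% rose. In the ADAR mutants, 12 features of 10 genes fell, by 0.38 to 1.05, and 1 rose, where 9.75% of all features fell and 13.3% rose. The N2 and mutant comparisons share no library, though they share the estimate of the spread, and 11 features of 9 genes fell in both, 68.8% of those in N2 and 91.7% of those in the mutants: alg-2, ergo-1, eri-1, mut-14, mut-2, nrde-3, rde-2, rde-4 and sid-1. Of all features 5.51% fell in both, 55.6% of those in N2 and 56.5% of those in the mutants. These counts depended on single pairs. The number that fell in N2 was 6 without the pair N2 replicate 1, 5 without N2 replicate 3 and 9 without BB21 replicate 2, which shares in the estimate of the spread. In the mutants it was 7 without any one of BB4 replicate 2, BB4 replicate 3, BB21 replicate 1 and BB21 replicate 2. Over all pairs left out in turn it was 5 to 14 in N2 and 7 to 17 in the mutants. A pair left out changes the test for every feature, and the share of all features called in these fits is not given here. These counts therefore do not show a dependence particular to the members. Without both pairs that stood apart, 8 features fell and 0 rose in N2, beside 7.77% and 7.99% of all features, and 9 fell and 1 rose in the mutants, beside 7.52% and 12.2%. A term for the title ending in place of the block called 19 lower and 1 higher in N2, beside 11.2% and 11.7%, and 12 lower and 1 higher in the mutants, beside 10.3% and 14.2%. With that term 11 features of 9 genes were again lower in both, beside 6.04% of all features, but with mut-7 and prg-2 in place of alg-2 and nrde-3.

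The mutator and rde genes, whose products make secondary siRNAs, held the largest number of features that fell. With the block, 7 of their 10 features fell in N2 and 5 of 10 in the ADAR mutants, beside 9.91% and 9.75% of all features. All 10 had a log2 fold change below 0 in both. The genes that fell were mut-14, mut-15, mut-2, mut-7 and rde-2 in N2 and mut-14, mut-2 and rde-2 in the mutants. The 2 features of mut-2 and those of rde-2 ran together (Pearson correlation of the log2 counts 0.997 and 0.995), so features of a gene are not independent. mut-2 encodes the nucleotidyltransferase that adds tails of U and G to RNAs that then serve as templates for secondary siRNAs. Its normalized count (K04F10.6a) was 734, 759 and 546 in N2 replicates 1, 2 and 3 under standard conditions and 485, 449 and 291 after heat shock. It was 644, 649.8 and 500.3 in BB4 replicates 1, 2 and 3 and 616 and 481 in BB21 replicates 1 and 2 under standard conditions, and 349.8, 271 and 324 and then 389.9 and 273 in the same order after heat shock. Heat shock and standard libraries did not overlap in either comparison. The log2 fold change was -0.85 ± 0.20 (SE) in the mutants, a fall of 1.8 times (limma, adjusted p = 0.0212, and 0.00222 with the block). In N2 it was -0.75 ± 0.26 (adjusted p = 0.13, and 0.0197 with the block).

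rde-2, also known as mut-8, acts with the nuclease homologue MUT-7 in the same foci. The count of rde-2 (F21C3.4a) was 1559, 1404 and 1272 in N2 replicates 1, 2 and 3 under standard conditions and 1084, 863 and 777 after heat shock. In the mutants it was 1033, 1088 and 1177 in BB4 replicates 1, 2 and 3 and 1071 and 1022 in BB21 replicates 1 and 2 under standard conditions, and 788, 738 and 781 and then 728 and 707 in the same order after heat shock. Here too the groups did not overlap, and the ratio of heat shock to standard ran from 0.611 to 0.763 over the 8 pairs, those that stood apart included (0.615 in N2 replicate 2 and 0.763 in BB4 replicate 1). The log2 fold change was -0.53 ± 0.14 (SE) in the mutants (adjusted p = 0.0402, and 0.00583 with the block) and -0.65 ± 0.19 in N2 (adjusted p = 0.0737, and 0.0143 with the block). The 4 calls in the mutants were lost without the pairs that stood apart when no block was used (0 called, 4 at an unadjusted p under 0.05), and held with the block, where the adjusted p of mut-2 was 0.00976 and that of rde-2 0.0145. They were also all lost with BB4 alone or BB21 alone as the mutant, after quantile normalization, and without any one of the libraries BB4 standard replicate 1, BB4 standard replicate 2 and BB4 heat shock replicate 2 when no block was used.

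Of the other mutator genes, the DEAD-box helicase gene mut-14 (C14C11.6) had ratios of heat shock to standard of 0.673 to 0.804 over the 8 pairs. It was at 1216, 1169 and 1159 in N2 replicates 1, 2 and 3 under standard conditions and 818, 841 and 897 after heat shock. The mutants had 916, 968 and 1100.0 in BB4 replicates 1, 2 and 3 and 1037 and 986 in BB21 replicates 1 and 2 under standard conditions, and 725, 665 and 841 and then 820.3 and 793 in the same order after heat shock. No heat shock library reached the standard libraries of its group. The fall passed the test with the block, at -0.47 ± 0.14 (SE) on the log2 scale in N2 (adjusted p = 0.0366) and -0.38 ± 0.11 in the mutants (adjusted p = 0.0247), and missed it without the 2 pairs that stood apart (0.0978 and 0.0599). mut-7 (ZK1098.8) and mut-15 (T01C3.8a), whose products are a 3′ to 5′ exonuclease homologue and a component of the foci, fell with the block in N2, by 0.72 and 0.78 on the log2 scale (adjusted p = 0.0263 and 0.0469, 0.0398 and 0.0548 without the pairs that stood apart, and 0.105 and 0.226 without the pair N2 replicate 1). In both, N2 replicate 1 moved most: mut-7 went from 759.5 to 314 and mut-15 from 473 to 159 in that pair, while the ratio in the other N2 pairs was 0.754 and 0.709 for mut-7 and 0.766 and 0.764 for mut-15. In the mutants their log2 fold changes were -0.41 and -0.22 (adjusted p = 0.0644 and 0.439 with the block), and with the title term in its place mut-7 was called in the mutants too (adjusted p = 0.0427). mut-16 (B0379.3b), the scaffold of the foci, was at -0.22 and -0.02 on the log2 scale (adjusted p = 0.398 and 0.923).

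**Figure D2:**
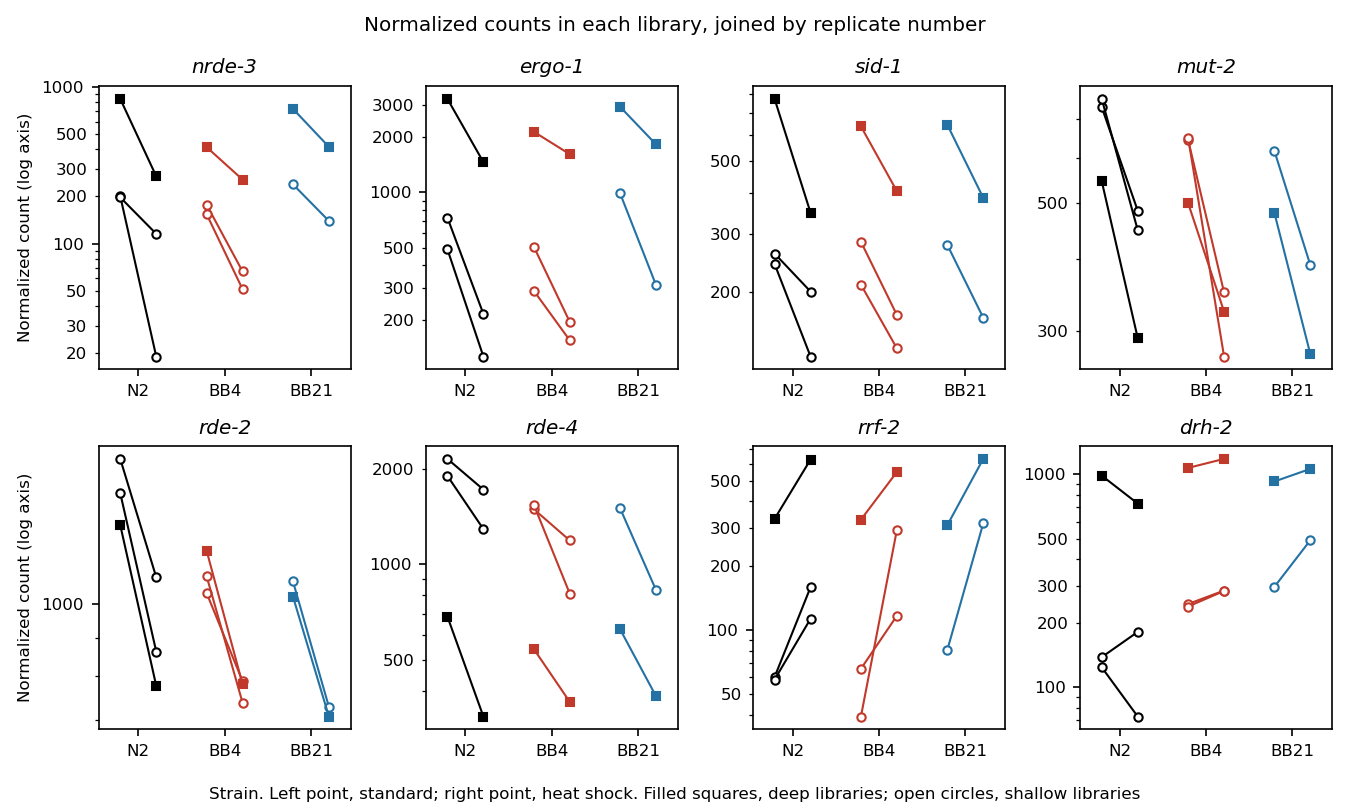
Each point is the normalized count in 1 library on a log axis, with the standard and heat shock libraries of the same strain and replicate number joined by a line, for 8 genes. mut-2, rde-2, rde-4, sid-1, ergo-1 and nrde-3 go down in all 8 pairs, rrf-2 goes up in all 8, and drh-2 goes up in the 5 mutant pairs and in 1 of 3 N2 pairs. Deep libraries (filled squares) lie above the shallow ones (open circles) for ergo-1, nrde-3, sid-1 and drh-2 and below them for rde-4.

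Among the primary Argonautes, 3 of 8 features fell in N2 and 2 of 8 in the ADAR mutants with the block, beside 9.91% and 9.75% of all features. ergo-1 encodes the Argonaute of the 26G siRNAs of oocytes and embryos, a class of endogenous siRNA made by the ERI complex. Its count (R09A1.1) was 489, 729 and 3248 in N2 replicates 1, 2 and 3 under standard conditions and 127, 217 and 1465 after heat shock. It was 506, 290.5 and 2148 in BB4 replicates 1, 2 and 3 and 989 and 2939 in BB21 replicates 1 and 2 under standard conditions, and 196, 156 and 1619 and then 311 and 1830.1 in the same order after heat shock. Every pair went down, by ratios of 0.259 to 0.754, yet the deep heat shock libraries were above all shallow standard libraries, so the groups overlapped. Its log2 fold change was -1.61 ± 0.25 (SE) in N2 and -1.0028 ± 0.19 in the mutants with the block (adjusted p = 0.00605 and 0.00479), -1.54 and -0.91 without the 2 pairs that stood apart (0.0211 and 0.021), and missed the threshold without the block (0.514 and 0.647). That was the lowest adjusted p of any member in N2 with the block.

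alg-2 encodes one of the 2 microRNA Argonautes. The feature T07D3.7b of alg-2 was at 43.8, 81.7 and 1336 in N2 replicates 1, 2 and 3 under standard conditions and 12.7, 38.5 and 695 after heat shock. In the mutants it was at 81.5, 45.9 and 900.1 in BB4 replicates 1, 2 and 3 and 183 and 1296 in BB21 replicates 1 and 2 under standard conditions, and 35.4, 34.1 and 800.2 and then 75.8 and 1021 in the same order after heat shock. All 8 pairs went down, while the level of the shallow libraries was far below that of the deep ones in either condition. With the block the log2 fold change was -1.24 ± 0.29 in N2 (adjusted p = 0.019, 0.0361 without the pairs that stood apart and 0.0802 without N2 replicate 1) and -0.67 ± 0.22 in the mutants (adjusted p = 0.0494, and 0.141 without the pairs that stood apart). With the title term in place of the block it was not called in either (0.0874 and 0.232). N2 heat shock replicate 1 held 4 reads of it. The other feature of alg-2 (T07D3.7a) was not called in either comparison, with the block or with the title term. It was at 256, 284 and 778 in N2 replicates 1, 2 and 3 under standard conditions and 231, 167 and 408 after heat shock, and was lower in every mutant pair too. The partner gene alg-1 (F48F7.1b) had 0.56 and 0.24 (adjusted p = 0.165 and 0.452). rde-1 (K08H10.7), the Argonaute that takes up siRNAs of introduced dsRNA, fell in N2, by 0.80 on the log2 scale (adjusted p = 0.0455 with the block, 0.0422 without the pairs that stood apart and 0.207 without N2 replicate 1), with counts of 703, 656 and 1079 before and 212, 551 and 799.9 after. In the mutants it was at -0.31 (adjusted p = 0.262). The Piwi gene prg-1 (D2030.6) was near 0 in both (-0.17 and 0.11, adjusted p = 0.452 and 0.56), and its close relative prg-2 (C01G5.2) had -1.09 and -0.72 (adjusted p = 0.0518 and 0.0811, and 0.0246 and 0.0425 with the title term in place of the block).

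Of the secondary Argonautes, 1 of 11 features fell with the block in each comparison, near the 9.91% of all features in N2 and 9.75% in the mutants. nrde-3 encodes the Argonaute that carries secondary siRNAs into the nuclei of somatic cells. The count of nrde-3 (R04A9.2) was 201, 197 and 838 in N2 replicates 1, 2 and 3 under standard conditions and 19.02, 115 and 269 after heat shock. It was 177, 154 and 413 in BB4 replicates 1, 2 and 3 and 239 and 724 in BB21 replicates 1 and 2 under standard conditions, and 66.4, 51.2 and 256 and then 139 and 414 in the same order after heat shock. This was the largest fall of any member with the block in both comparisons, -1.91 ± 0.40 (SE) on the log2 scale in N2 (adjusted p = 0.0145) and -1.05 ± 0.31 in the mutants (0.0328), or 3.76 and 2.07 times. The N2 value leaned on replicate 1, where the ratio of heat shock to standard was 0.0947, against 0.585 and 0.321 in the other pairs. The heat shock library of that pair held 6 reads of nrde-3, so its value is imprecise. Without the pairs that stood apart it was -2.48 and -0.96 (0.0121 and 0.0484), and without the block it missed the threshold (0.295 and 0.516). Without N2 replicate 1 it was -1.20 in N2 (0.0531), and with the title term it was called in N2 and missed in the mutants (0.0176 and 0.0635). The remaining 10 features, of csr-1, which binds germline transcripts, and of ppw-1, ppw-2, sago-1 and sago-2, lay between -0.67 and 0.00 in N2 and between -0.26 and 0.26 in the mutants, and 0 of them passed the test in either.

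Of the 5 features of Dicer and its partners, 2 fell in N2 and 1 in the mutants with the block, beside 9.91% and 9.75% of all features. Dicer itself did not pass the test: dcr-1 (K12H4.8) was at 1039, 945 and 1787 in N2 under standard conditions and at 888, 677 and 1345 after heat shock, with a log2 fold change of -0.37 (adjusted p = 0.127 with the block) and of -0.17 in the mutants (0.374). Its dsRNA-binding partner rde-4 (T20G5.11), which Dicer needs for introduced dsRNA, did. rde-4 was at 2151, 1901 and 686 in N2 replicates 1, 2 and 3 under standard conditions and 1722, 1293 and 332 after heat shock. It stood at 1494, 1544 and 542 in BB4 replicates 1, 2 and 3 and 1503 and 625 in BB21 replicates 1 and 2 under standard conditions, and 1191, 810.0 and 369 and then 829.8 and 385 in the same order after heat shock. All 8 pairs were lower after heat shock, with ratios of 0.484 to 0.8, and the deep libraries were below every shallow one, the only member for which this was so. Its log2 fold change was -0.64 ± 0.18 (SE) in N2 (adjusted p = 0.0336 with the block and 0.697 without) and -0.67 ± 0.14 in the mutants (0.007 and 0.557). Without the 2 pairs that stood apart the adjusted p was 0.0661 in N2 and 0.0117 in the mutants.

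drh-1 (F15B10.2), the RIG-I-like helicase of antiviral RNAi, had 533, 473 and 981 in N2 under standard conditions and 108, 403 and 632 after heat shock, so that replicate 1 dropped to about 0.202 times its standard value and the other pairs to 0.852 and 0.644 times. With the block its log2 fold change was -1.05 ± 0.32 in N2 (adjusted p = 0.0418, 0.0301 without the pairs that stood apart and 0.183 without N2 replicate 1) and -0.35 ± 0.25 in the mutants (0.326). drh-3 (D2005.5), the helicase that works with the polymerases, had -0.43 and -0.20 (adjusted p = 0.0715 and 0.267). sid-1 encodes the channel through which dsRNA enters cells. The count of sid-1 (C04F5.1) was 243, 261 and 773 in N2 replicates 1, 2 and 3 under standard conditions and 127, 200.1 and 348 after heat shock. It was 284, 210.0 and 638 in BB4 replicates 1, 2 and 3 and 278 and 645 in BB21 replicates 1 and 2 under standard conditions, and 169.7, 134 and 405 and then 167 and 386 in the same order after heat shock. The ratio of heat shock to standard was 0.45 to 0.766 over the 8 pairs. Both changes passed the test with the block, at -0.82 ± 0.19 (SE) in N2 and -0.70 ± 0.15 in the mutants (adjusted p = 0.02 and 0.00807), also without the pairs that stood apart (0.0244 and 0.0165). N2 missed it without replicate 1 (0.0652), and both did without the block (0.517 and 0.465). sid-2 (ZK520.2), which takes up dsRNA from the gut lumen, had its highest counts in the heat shock libraries of the 2 pairs that stood apart, 405 in N2 replicate 2 and 344 in BB4 replicate 1, against 115 to 206 in the other 14 libraries.

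The eri genes restrain RNAi of introduced dsRNA and take part in making endogenous siRNAs. With the block 2 of their 10 features fell in each comparison, beside 9.91% of all features in N2 and 9.75% in the mutants. eri-1 encodes an exonuclease of siRNAs and ribosomal RNA. The feature T07A9.5b of eri-1 was at 781, 691 and 590.0 in N2 replicates 1, 2 and 3 under standard conditions and 564, 439.9 and 364 after heat shock. It was at 481, 509 and 535 in BB4 replicates 1, 2 and 3 and 607 and 499 in BB21 replicates 1 and 2 under standard conditions, and 474, 365 and 378 and then 429 and 346 in the same order after heat shock. The groups did not overlap in N2 or in the mutants, although the pair of BB4 replicate 1 went from 481 to 474 only. Its log2 fold change was -0.61 ± 0.17 in N2 and -0.40 ± 0.13 in the mutants (adjusted p = 0.0312 and 0.0431 with the block, and 0.0727 and 0.0377 without the pairs that stood apart). The second feature of eri-1 (T07A9.5a) fell in N2 (-0.65, adjusted p = 0.039), and eri-3 (W09B6.3), part of the ERI complex, fell in the mutants (-0.54, adjusted p = 0.0393, and 0.0529 without the pairs that stood apart). The 6 features of the helicase gene eri-6 ranged from -0.37 to 0.65 in N2 and from -0.29 to 0.46 in the mutants, and 0 of them passed. The exonucleases xrn-1 (Y39G8C.1) and xrn-2 (Y48B6A.3) did not pass either, with log2 fold changes of -0.40 and -0.02 in N2 and 0.16 and -0.14 in the mutants.

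The RNA-dependent RNA polymerases differed in direction. rrf-2 was the one member that rose. The count of rrf-2 (M01G12.12) was 60.3, 58.6 and 331 in N2 replicates 1, 2 and 3 under standard conditions and 159, 113 and 627 after heat shock. It was 65.8, 39.4 and 328 in BB4 replicates 1, 2 and 3 and 80.5 and 309 in BB21 replicates 1 and 2 under standard conditions, and 117, 294 and 548 and then 315 and 631 in the same order after heat shock. All 8 pairs were higher after heat shock, by ratios of 1.67 to 7.47, with the highest in BB4 replicate 2 and BB21 replicate 1. The shallow standard libraries held 24 to 60 reads of rrf-2, the fewest in BB4 replicate 2, so the ratios of the shallow pairs are imprecise. In the mutants the log2 fold change was 1.48 ± 0.29 (SE) or 2.79 times (adjusted p = 0.00575 with the block, 0.00968 also without the pairs that stood apart, 0.269 without the block). In N2 it was 1.08 ± 0.38 with the block and missed the threshold (adjusted p = 0.065, and 0.0422 with the title term in its place). The polymerases with known roles, ego-1 in the germ line (F26A3.3), rrf-1 in the soma (F26A3.8) and rrf-3 of the ERI complex (F10B5.7), had -0.63, -0.74 and -0.43 in N2 and -0.28, -0.24 and -0.15 in the mutants, and 0 of them passed the test with the block. With the title term in its place rrf-1 was called in N2 (adjusted p = 0.0493), as was drh-3 (0.0478).

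Of the 9 listed genes held under other names, the paired Argonaute genes of spermatogenesis, alg-3 and alg-4, went up. alg-3, held as T22B3.2, was at 292, 331 and 782 in N2 replicates 1, 2 and 3 under standard conditions and 780.0, 610.5 and 1286 after heat shock. It was at 626, 546 and 667 in BB4 replicates 1, 2 and 3 and 452 and 1141 in BB21 replicates 1 and 2 under standard conditions, and 834, 882 and 1307 and then 646 and 1469 in the same order after heat shock. alg-4, held as tag-76, was at 708, 665 and 1446 in N2 replicates 1, 2 and 3 under standard conditions and 1199, 1165 and 2838 after heat shock for its most abundant feature, ZK757.3a. In the mutants alg-4 had 1386, 1136 and 1068 in BB4 replicates 1, 2 and 3 and 990.3 and 2338 in BB21 replicates 1 and 2 under standard conditions, and 1609, 2174 and 2962 and then 1629.9 and 3533 in the same order after heat shock. All 8 pairs of both were higher after heat shock. With the block, 4 of their 5 features rose in both comparisons, by 0.85 to 1.004 on the log2 scale in N2 and 0.58 to 0.79 in the mutants (adjusted p = 0.00942 and 0.0137 for alg-3, 0.0217 and 0.00631 for alg-4), and 0 did without it. Without the pairs that stood apart these were 0.0272 and 0.0299, and 0.0389 and 0.00526. With the block 9.57% of all features rose in N2, and 13.3% rose and 9.75% fell in the mutants (7.99%, 12.2% and 7.52% without the pairs that stood apart). The summed counts of the listed sperm genes changed by ratios of 0.745 to 1.94 over the 8 pairs, below 1 in 7 of them (6 of their 24 features rose in N2 and 1 fell in the mutants with the block, and 3 and 0 without the pairs that stood apart). The part of the sperm genes in the rise of alg-3 and alg-4 was not tested. In N2, rde-10 (Y47G6A.4), part of the RDE-10/RDE-11 complex that amplifies siRNAs, went from 336, 307 and 412 to 69.8, 254 and 241, with ratios of 0.208, 0.826 and 0.584. Its log2 fold change with the block was -1.0996 (adjusted p = 0.0484, and 0.0311 without the pairs that stood apart), and -0.52 without N2 replicate 1 (0.266). The germline Argonaute gene wago-1 (R06C7.1) fell by 0.64 in N2 (adjusted p = 0.0175 with the block, 0.0421 without the pairs that stood apart and 0.0721 without N2 replicate 1). The nuclear RNAi genes nrde-1, nrde-2 and nrde-4 (C14B1.6, T01E8.5 and F45E4.10) and the germline nuclear Argonaute gene hrde-1 (C16C10.3) did not pass, nor did rde-11 (B0564.11).

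A further list of 58 small RNA genes, of which 30 were in the table as 44 features, held more features that fell than rose. Without the block 1 of 44 fell in the mutants, the poly(U) polymerase gene pup-3 (F59A3.9), where 2.39% of all features fell. In N2 0 changed, where 0.537% fell and 2.36% rose. With the block 11 fell and 1 rose in N2, beside 9.91% and 9.57% of all features. In the mutants 12 fell and 2 rose with it, beside 9.75% and 13.3%. Without the pairs that stood apart 12 fell and 1 rose in N2, beside 7.77% and 7.99%. In the mutants 7 fell and 2 rose without them, beside 7.52% and 12.2%. pup-3 was at 94.9, 99.5 and 103 in N2 under standard conditions and 34.9, 57.7 and 28.6 after heat shock, and at 54.2 to 135 and 12.8 to 38.4 in the mutants, with no overlap. Its log2 fold change was -1.73 ± 0.36 (SE) in the mutants (adjusted p = 0.0118). Its relative pup-2, the helicase gene eri-7, eri-9 and the RNA phosphatase gene pir-1 fell in both comparisons with the block. The Argonaute genes that rose were wago-10 (T22H9.3), by 2.52 in N2 and 1.80 in the mutants (adjusted p = 0.00252 and 0.00103), and vsra-1 (C04F12.1), by 1.09 in the mutants (0.00686). wago-10 was at 27.4, 40.9 and 141.6 in N2 under standard conditions and 247, 171 and 755 after heat shock, so each N2 pair rose.

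Marker lists of other cell types moved in both directions. Those of oocytes and embryos, the germ line and the intestine were lower after heat shock in most pairs, as the RNAi genes were. The summed counts of body muscle and neuron markers were higher in most pairs, though few of their features were called. Features of all 6 marker lists (17 of 19 listed oocyte and embryo genes, 9 of 10 intestine genes and all genes of the others) were detected, and 0 of the features of oocyte and embryo, germ line, sperm, intestine or body muscle were at 0 in any library. The summed count of the 19 oocyte and embryo features was 52124 to 62126 in N2 and 40946 to 54222 in the mutants under standard conditions, and 21739 to 27091 and 12331 to 26586 after heat shock, without overlap. That sum after heat shock was 0.301 to 0.554 times that under standard conditions over the 8 pairs, and with the block 18 of their 19 features fell in N2 and 19 of 19 in the mutants (17 and 19 without the pairs that stood apart). Of all features 9.91% fell in N2 and 9.75% in the mutants with the block (7.77% and 7.52% without those pairs). The sum of the germ line markers was 33884 to 55272 in N2 and 28965 to 44216 in the mutants under standard conditions, and 24562 to 40237 and 23482 to 41960.4 after heat shock, with overlap. It was 0.725 to 0.949 times the standard value within pairs, with 9 and 5 of 26 features lower (8 and 2 without the pairs that stood apart), and that of the intestine 0.48 to 0.975 times, with 5 and 1 of 10 lower (4 and 1). Body muscle (0.883 to 2.09 times) and neuron markers (1.00 to 1.52 times) went the other way, above 1 in 6 and 8 of the 8 pairs, and the sum of the 52 members was 0.665 to 1.09 times. Several members act in oocytes, embryos or the germ line, and the part of these cells in the lower counts was not tested.

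**Figure D3:**
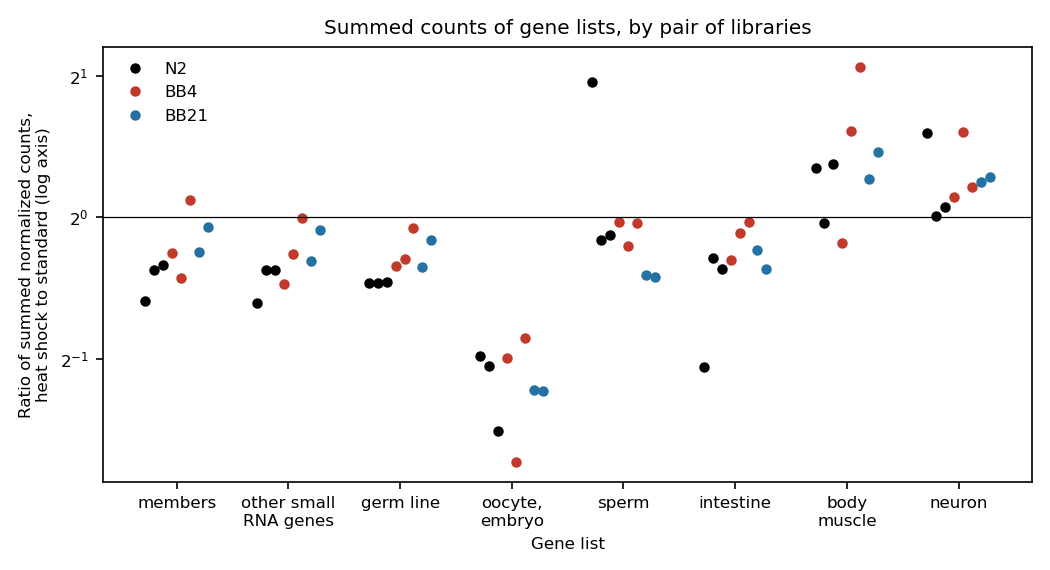
Each point is the ratio of summed normalized counts, heat shock to standard, in 1 pair of libraries (log axis), for the 52 member features, the other small RNA genes and 6 lists of cell type markers. The oocyte and embryo markers lie between 0.301 and 0.554 in all 8 pairs, below the members at 0.665 to 1.09.

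Whether the ADAR mutants answered heat differently from N2 was tested by the difference of the 2 responses. It called 0 of the 52 features, with 0 at an unadjusted p under 0.05, also with the block and with a term for the title ending, and 0.0% of all features in each direction (0.34% higher and 1.06% lower at an unadjusted p under 0.05). DESeq2 and edgeR called 0 as well. With the block and without the pairs that stood apart 0 were called and 7 were higher at an unadjusted p under 0.05, beside 6.43% of all features higher and 3.31% lower. The median difference (ADAR minus N2) was 0.26 on the log2 scale, beside 0.05 over all features, and 42 of the 52 were above 0, where 13177 of all 24401 features were. The median rested on single libraries: without the block it was 0.06 without N2 standard replicate 3, 0.07 without N2 heat shock replicate 1 and 0.51 without N2 heat shock replicate 3, and it ran from 0.06 to 0.51 over all 16 libraries left out in turn. With the block it ran from 0.17 (without N2 replicate 1) to 0.32 over pairs left out. With the block the members had differences from -0.56 to 0.86, and the median SE was 0.27. The members with the lowest unadjusted p without the block were mut-15 (0.56, 95% interval -0.29 to 1.42), sago-2 (0.41, -0.38 to 1.21) and sid-2 (-0.56, -1.71 to 0.58). For nrde-3 the difference with the block was 0.86 with an interval of -0.25 to 1.98, for ergo-1 0.61 with -0.08 to 1.29, and for mut-2 -0.10 with -0.59 to 0.39. These genes fell in both N2 and the mutants with the block. As the test of the difference called 0 members, genes called in one strain and missed in the other were not shown to differ.

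ADAR mutants and N2 were then compared within each condition, the question being whether loss of ADARs alters the RNAi genes themselves. Under standard conditions 0 of the 52 features were called, where 0.0041% of all features were called higher and 0.0% lower. At an unadjusted p under 0.05, 2 were lower and 0 higher, beside 0.738% and 3.14%. After heat shock 0 were called, where 0.0% of all features were, and 0 were at an unadjusted p under 0.05, where 1.89% were lower and 2.75% higher. DESeq2 and edgeR also called 0 members in both conditions (DESeq2 called 0.0615% of all features higher and 0.0287% lower under standard conditions and 0.0041% lower after heat shock, and edgeR 0.0%). Without the libraries that stood apart 0 members were called in both conditions, beside 0.0% of all features. With a term for the title ending 0 members were called in either condition, where 0.0164% to 0.0205% of all features were called in each direction. That term lowered the median SE of the members from 0.39 to 0.20, and 5 members were then lower and 2 higher under standard conditions at an unadjusted p under 0.05, beside 4.11% and 6.35% of all features, and 1 was higher after heat shock, beside 9.91% higher and 8.31% lower. Between BB4 and BB21, whose alleles differ, 0 members were called and 0 were at an unadjusted p under 0.05 in both conditions. Of all 24401 features 0 were called as well. At an unadjusted p under 0.05, 19 of all features were higher and 29 lower in BB4 under standard conditions, and 71 and 54 after heat shock. This fit had few libraries a strain and no term for the title ending, so it cannot show that the 2 strains are alike.

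The member with the lowest p under standard conditions was rde-2. Its 3 N2 libraries, at 1559, 1404 and 1272, lay above the 5 mutant libraries, at 1033, 1088 and 1177 in BB4 and 1071 and 1022 in BB21. The log2 fold change was -0.39 ± 0.17 (SE), with a 95% interval of -0.74 to -0.03 and an adjusted p of 1 (unadjusted 0.036), and -0.39 with the title term (adjusted p = 0.324). Without overlap between N2 and the mutants, rde-2 (both features) and mut-14 were lower in the mutants under standard conditions, 3 of 52 features where 1.96% of all features were, and sid-2 was higher, where 2.85% were. After heat shock 1 feature of rde-2 (F21C3.4b) was lower without overlap and 0 members were higher, beside 0.77% and 0.607%. Within each set of title endings 20 of the 52 members were lower in all mutant libraries and 2 higher under standard conditions, beside 18.4% and 11% of all features. After heat shock 1 was lower and 7 were higher, beside 8.88% and 8.79%. The standard and heat shock comparisons share no library.

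drh-2 (C01B10.1), a relative of drh-1 that RefSeq annotates as a pseudogene, was singled out after its values were seen. After heat shock it was at 72.9, 182 and 729 in N2, 285, 284 and 1183 in BB4 and 491 and 1062 in BB21. Under standard conditions it was at 124, 139 and 987 in N2, 246, 239.6 and 1073 in BB4 and 297 and 926 in BB21. Within each set of title endings the mutant libraries were above N2 after heat shock. Under standard conditions this held for the shallow libraries, while the deep N2 library (987) lay between those of BB21 (926) and BB4 (1073). The log2 fold change with the title term was 1.23 ± 0.31 (SE) after heat shock (adjusted p = 0.129) and 0.65 ± 0.31 under standard conditions (adjusted p = 0.472), neither past the threshold. Strand was not stated for the counting, and reads that also fit drh-1 may be counted for both genes. Likewise named after their values were seen, 2 features of eri-6 (C41D11.1e and C41D11.1f) were at 27.4, 31.98 and 88.1 and 34.7, 42.6 and 89.9 in N2 under standard conditions and at 43.9 to 98.2 and 54.9 to 153 in the mutants, with log2 fold changes of 0.73 and 0.91 (adjusted p = 1 for both). The shallow N2 libraries held 15 and 18 reads of C41D11.1e and 19 and 24 of C41D11.1f. Within each set of title endings C41D11.1f was higher in the mutants under standard conditions, and another eri-6 feature, C41D11.1a, was lower.

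**Figure D4:**
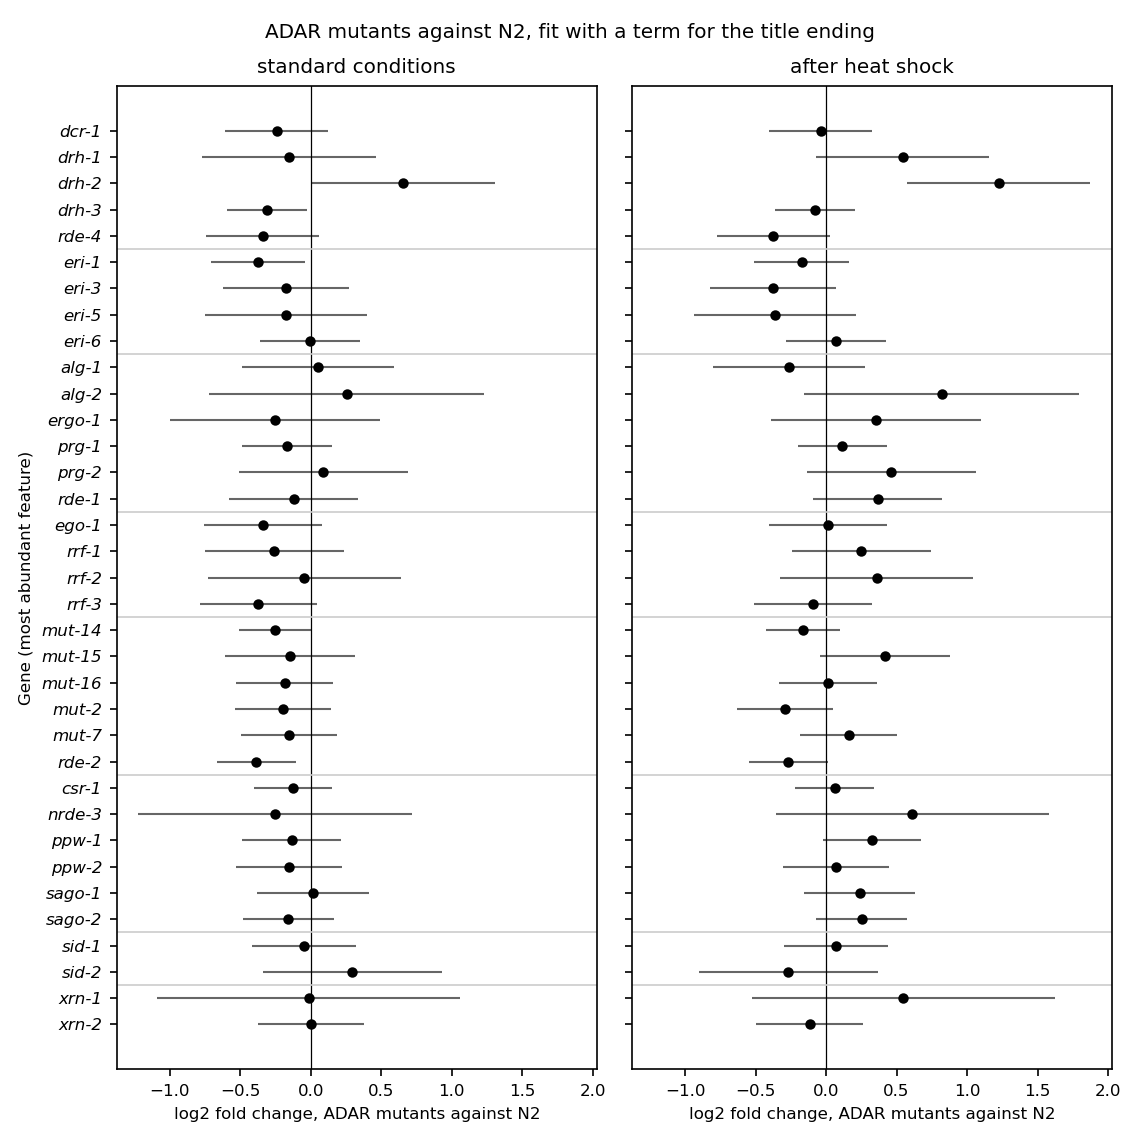
Points are log2 fold changes of ADAR mutants against N2 for the most abundant feature of each of the 35 genes, from the fit with a term for the title ending, and lines are 95% intervals, under standard conditions (left) and after heat shock (right). The unadjusted intervals lie off 0 for drh-2 on both sides and for drh-3, eri-1 and rde-2 on the left, and drh-2 after heat shock lies farthest above it, at 1.23.

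Several of these genes differed more between deep and shallow libraries than between conditions or strains. With the term for the title ending, 39 of the 52 features were higher and 5 lower in the deep libraries (limma, adjusted p under 0.05), beside 35.7% and 28.6% of all features, and 29 were above every shallow library in every deep one and 1 below, beside 18.7% and 14.1%. ppw-1 feature C18E3.7b was at 0 to 2.71 in the 10 shallow libraries and 261 to 312 in the 6 deep ones, where a count of 0 allows up to 3 reads. xrn-1 was at 6.34 to 55.02 and 873 to 1573, a ratio of medians of 78.6. alg-1 feature F48F7.1a had 9.51 to 40.8 and 524 to 1032, and rde-4 went the other way, with 810.0 to 2151 and 332 to 686. For each of these 4 genes the shallow and deep ranges did not meet. The difference was larger for longer transcripts: over the 46 members with an exon length in the WBcel235 annotation, the correlation of the log2 difference with length was 0.54 (Pearson) and 0.72 (Spearman), and over all 21349 features with a length it was 0.50 and 0.60. The points are transcripts measured in the same 16 libraries and are not independent. The median log2 difference was 0.94 for the 31 members of 2000 bases or more and 0.00 for the 15 shorter ones. RNA was extracted with 2 kits in the study, and which library had which kit is not stated in the sources used here.

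**Figure D5:**
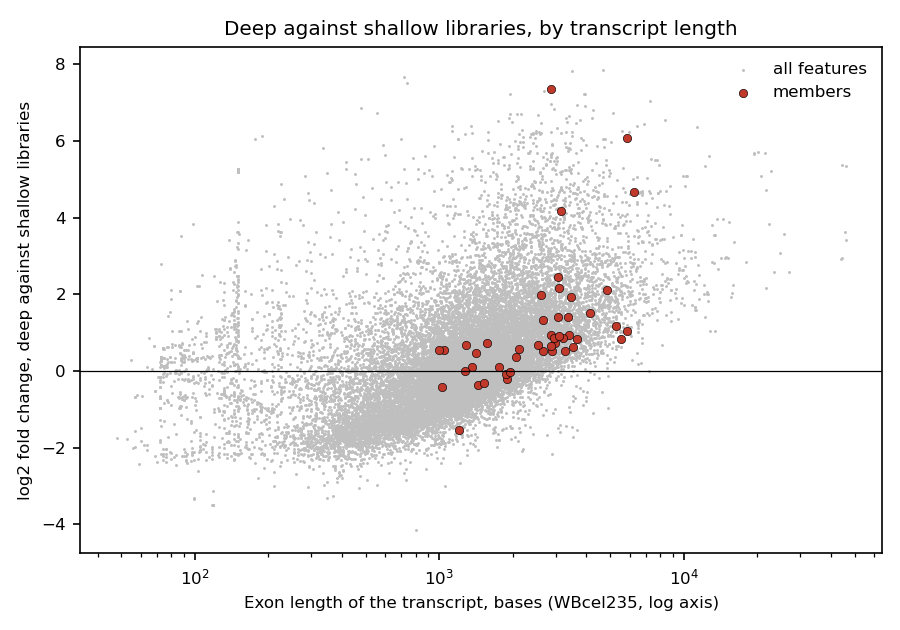
Each point is 1 feature, with the exon length of its transcript on the x axis (log axis) and the log2 fold change of deep against shallow libraries on the y axis, members in red and all features in grey. Members of 2000 bases or more have a median of 0.94, and those under 2000 bases of 0.00.

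Normalized counts are not divided by transcript length, so they order a gene's libraries and not the genes. Reads could be placed on more than one transcript, so isoforms and close relatives share reads. ppw-1 (C18E3.7d) and sago-2 (F56A6.1b), whose Argonautes are alike in sequence, had counts in a nearly fixed ratio of 2.87 to 3.49 in all 16 libraries (Pearson correlation of the log2 counts 0.996, a description), and their values are uncertain to the extent that reads fit both.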

How the data were processed

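Poly(A) RNA of whole L4 worms was sequenced in 16 libraries. Per the methods of the study, single reads were trimmed, collapsed and aligned with Bowtie to WS220 transcripts with multiple alignments allowed, and compared with DESeq2. Versions and strand are not given in the sources used here. The deposited signal is the read count per transcript divided by 1 size factor per library by the authors. In every library 100% of the values were whole multiples of the value of 1 read (tolerance 0.001 reads), so reads were recovered, and total reads per library set the precision of each value. A second deposited table holds the authors' own fold changes and p-values and was not used.

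Values were compared as log2(normalized count + 1), with 24401 features kept by a minimum mean of 1, with limma 3.58.1 in R 4.3.3 (variance trend, two-sided, Benjamini-Hochberg adjustment over all features, called at an adjusted p under 0.05). Fold changes on this scale understate those of low counts. All 16 libraries in 4 groups (N2 or ADAR mutant, standard or heat shock) entered the fit. Where members are counted, all 52 features passed the filter.

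Heat shock and standard libraries were paired by replicate number. The deviations of libraries with the same strain and number from their group means correlated at 0.385 to 0.822 in the 8 pairs, and 5 of 8 libraries matched their own number best. The deep pairs correlated at 0.80 to 0.82. Among the shallow pairs, N2 replicate 2 (0.385 against 0.561), BB4 replicate 2 and BB21 replicate 1 matched another number better, and how far the pairing holds beyond depth was not tested. Fits with this number as a block are given beside the others. Alternatives were a term for the title ending, edgeR 4.0.16 and DESeq2 1.42.0 on recovered reads, other pseudocounts, filters and scalings, each mutant strain alone, 1 feature per gene, and each library or pair left out. Scripts were tested on simulated data.

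Genes named with values are those called in any comparison (at most 10 a direction, by fold change), the 3 with the lowest p in each, the one with the highest mean count in each role, and relatives that share reads, each gene by its most abundant feature. For any other gene named, the values were known when it was picked. Earlier results of these data were also known when the members and lists were chosen. No sequence or coordinate is given.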

Additional observations from a re-analysis of the deposited data

Results flagged for a closer look

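In 46 groups of 5 libraries tested for a library far from the others, 2 stood out, where chance alone picks about 1 in 20 groups. Among the 5 ADAR mutant libraries under standard conditions, the count of mut-15 (T01C3.8a) in BB21 replicate 2 was 519, above the others at 411 to 431. In the same group the count of rde-2 (F21C3.4b) in BB4 replicate 3 was 571, above the others at 489.9 to 510.4. Both are deep libraries.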

How the results depend on the processing

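In N2 the comparison of heat shock with standard conditions called 0 members lower, and 6 with DESeq2, 16 with the replicate block and 19 with the term for the title ending. With the block it was 8 without the 2 pairs that stood apart, and 5, 6, 9, 11, 12, 13 or 14 over single pairs left out. The number called higher in N2 was 0, and 1 with the title term, with a range of 0 to 1 over pairs left out with the block. In the ADAR mutants the number lower was 4, and 0 with quantile normalization, with BB4 alone, with BB21 alone, without the libraries that stood apart and with the added fold limit, 2 with 1 feature per gene (which leaves 1 of the 2 features of each gene called), and 0 to 4 without single libraries. It was 12 with the block and with the title term, 9 with the block without the pairs that stood apart, and 7, 10 or 17 with the block over single pairs left out. The number higher in the mutants was 0, and 1 with the block, the title term or the shallow libraries alone, 1 with the block without the pairs that stood apart and 1 to 1 over pairs left out. Except where a smaller set of libraries or features was used, the cause of these shifts was not tested.

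The counts for ADAR mutants against N2 in either condition and for the difference of the responses stayed at 0 under every alternative run, library and pair left out included. The block changed no other call of a comparison than those given with the results. Among fold changes of single genes, 3 reversed, all in N2: alg-2 (T07D3.7b) ran from -2.88 to 0.25 over single libraries left out (above 0 without N2 standard replicate 3), eri-3 (W09B6.3) from -0.76 to 0.10 and rde-4 (T20G5.11) from -1.16 to 0.081 (both above 0 without N2 heat shock replicate 3). Leaving out these deep libraries leaves a group with only shallow ones. Of the other single-gene values with a test, 1672 kept their direction and side of the threshold, 200 passed it only under the alternative and 55 only without it.

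The SE sets what can be seen: the median over the members was 0.44 in N2 and 0.34 in the mutants on the log2 scale, and 0.21 and 0.16 with the block.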
